A study of Mus musculus with 5 samples.

Results

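Murine lung cancer-associated fibroblasts (CAFs) carrying a control vector (CAF-vec) were compared with CAFs overexpressing miR-200 (CAF-200) for 10 genes of lipid droplets and lipofibroblasts, out of 21835 genes in the deposited RNA sequencing table. The 10 genes were the perilipins *Plin2*, *Plin3* and *Plin4*, the lipases *Plb1*, *Pnpla2* and *Lpl*, the fatty acid uptake and binding genes *Cd36*, *Fabp4* and *Fabp5*, and the transcription factor gene *Pparg*. They were chosen by name and role with the comparison of CAF-200 and CAF-vec already known, so their levels and fold-changes are given as a description, and no test result is taken as support for them. There were 2 CAF-vec samples, whose genotype was labelled as wild-type control, and 3 CAF-200 samples, labelled as miR-200 overexpression. The cells of both groups were lung CAFs in alpha-MEM with serum, and the CAF-200 cells had received by lentivirus the cluster that encodes miR-200b, miR-200a and miR-429, so each group was a population of transduced cells in culture and no lung or tumor tissue was measured. The sample labels name a neomycin vector and G418 selection for the CAFs, whereas the methods describe a hygromycin vector. The methods also describe RNA in triplicate for each group, and 2 CAF-vec samples were analysed here. The strain and age of the mice are not given with the labels.

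Lipid droplets store triglyceride under a single layer of phospholipid that is coated by perilipins, and lipases release fatty acids from the store. Lipofibroblasts are lung fibroblasts next to the alveolar type II cells that hold such droplets, pass lipid on for surfactant, and are marked by *Plin2* and *Pparg*, whereas myofibroblasts carry contractile proteins and few droplets. PPARG is the nuclear receptor that drives adipocyte genes, among them genes for perilipins, lipoprotein lipase, CD36 and FABP4.

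The overexpressed miRNAs are shown first because matches to their seeds were searched for in the transcripts. The mature sequences (mouse, RefSeq, GRCm38.p6, minus strand of chromosome 4) are written 5′ to 3′ with the seed, bases 2 to 8, in capitals.
mmu-miR-200b-3p: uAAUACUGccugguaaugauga
mmu-miR-200a-3p: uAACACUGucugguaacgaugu
mmu-miR-429-3p: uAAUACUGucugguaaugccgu
They lie at chr4:156055685-156055706, chr4:156054911-156054932 and chr4:156053916-156053937. miR-200b and miR-429 share a seed, whose match in a transcript is CAGTATT, and the match of the miR-200a seed is CAGTGTT. Both matches were searched on the sense strand of the longest annotated 3′-UTR of each gene. Among 12060 tested genes with such a UTR, 15.7% held CAGTATT, 20.9% held CAGTGTT and 30.3% held at least 1 of them, and the median UTR was 1174 bases long. Of the 10 droplet and lipofibroblast genes, 1 (10%) held a match. It was *Plin3*, with CAGTATT at base 733 of its 2256-base 3′-UTR. The other 9 held neither match in the 3′-UTR of any of their annotated coding transcripts, and the UTRs had a median of 987 bases over the 10 genes and a range from 204 bases in *Pparg* to 2428 bases in *Lpl*. *Plin4* and *Plb1*, which differed most between the groups, had 3′-UTRs of 1416 and 899 bases without a match. Shorter matches and sites outside the 3′-UTR were not searched, so a gene without a match may still pair with the miRNAs.

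The *Plin3* match is shown with its flanks, beside those of 4 other lipid or lipofibroblast genes that passed the test described below and were picked after their values were seen, 3 lower and 1 (*Npnt*) higher in CAF-200. Each is the transcript strand 5′ to 3′ with the seed match in capitals.
Plin3: atcctggggctCAGTATTgccttaataaa
Vldlr: gagcccctagaCAGTATTgccatctctgg
Lpin1: acgttcccttgCAGTATTgccgactgtct
Fgf10: ttgtttggattCAGTATTttgataggaac
Npnt: agccaacccagCAGTATTaacagaacaaa
The matches lie at chr17:56278993-56278999 (minus strand), chr19:27249381-27249387 (plus strand), chr12:16537868-16537874 (minus strand), chr13:118791009-118791015 (plus strand) and chr3:132882443-132882449 (minus strand) of GRCm38. *Npnt* also held CAGTGTT (chr3:132884056-132884062). Only genes with a match are shown. *G0s2*, *Plbd2*, *Pnpla6*, *Ppard* and *Inmt*, which also had an adjusted *p* under 0.01 in limma, held neither match in their longest 3′-UTR. A match is only a stretch of letters, and pairing with the miRNA was not measured.

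Levels were compared as CPM, the reads of a gene per 1000000 reads, as normalized by the authors. The columns summed to between 999956 and 1000111 CPM, and whole counts could not be recovered from the values, so the sequencing depth of each sample is unknown and limits the low values to an unknown extent. Of the 21835 genes, 12175 had at least 0.5 CPM in at least 2 samples and were compared on log2(CPM + 0.5) with limma, where the log2 fold-change (log2FC, CAF-200 against CAF-vec) is understated for genes with low values. The spread between the CAF-vec samples was wider (SD of the log2 difference over genes, 0.49) than between pairs of CAF-200 samples (0.19 to 0.20). The labels do not say whether the samples came from separate cultures, so *p* values measure the spread between these samples, which may be technical. miR-200b, miR-200a and miR-429 precursors have no row in the table, so their levels were not measured here. *Zeb1*, a known target of the family with matches to both seeds, was 43.5 and 50.7 CPM in CAF-vec and 37.8, 37.5 and 34.1 CPM in CAF-200 (log2FC -0.36, limma, adjusted *p* = 0.0504), lower in each CAF-200 sample but not past an adjusted *p* of 0.01. The fibroblast genes *Col1a1*, *Col3a1* and *Vim* and the other fibroblast markers, 9 in all, were each above the level needed for testing.

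In CAF-200 the 3 perilipins and the 3 lipases were lower than in CAF-vec, with *Plin4* and *Plb1* the furthest below, while *Fabp4*, *Fabp5* and *Pparg* were higher. *Cd36* was listed at 0 in all 5 samples. All 9 genes with a value were high enough to be compared. For 6 of them all CAF-200 values were below both CAF-vec values, and for 3 they were above. Such a separation was common in these samples, holding for 61.6% of all genes tested, 37.3% with CAF-200 below and 24.3% with CAF-200 above, so it sets none of the 9 apart. The median log2FC of the 9 genes was -0.59, and that of all genes tested was -0.094. In bulk samples, fewer cells of a type and less RNA per cell cannot be told apart. The plot of CPM by sample shows the 10 genes.

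**Figure D1:**
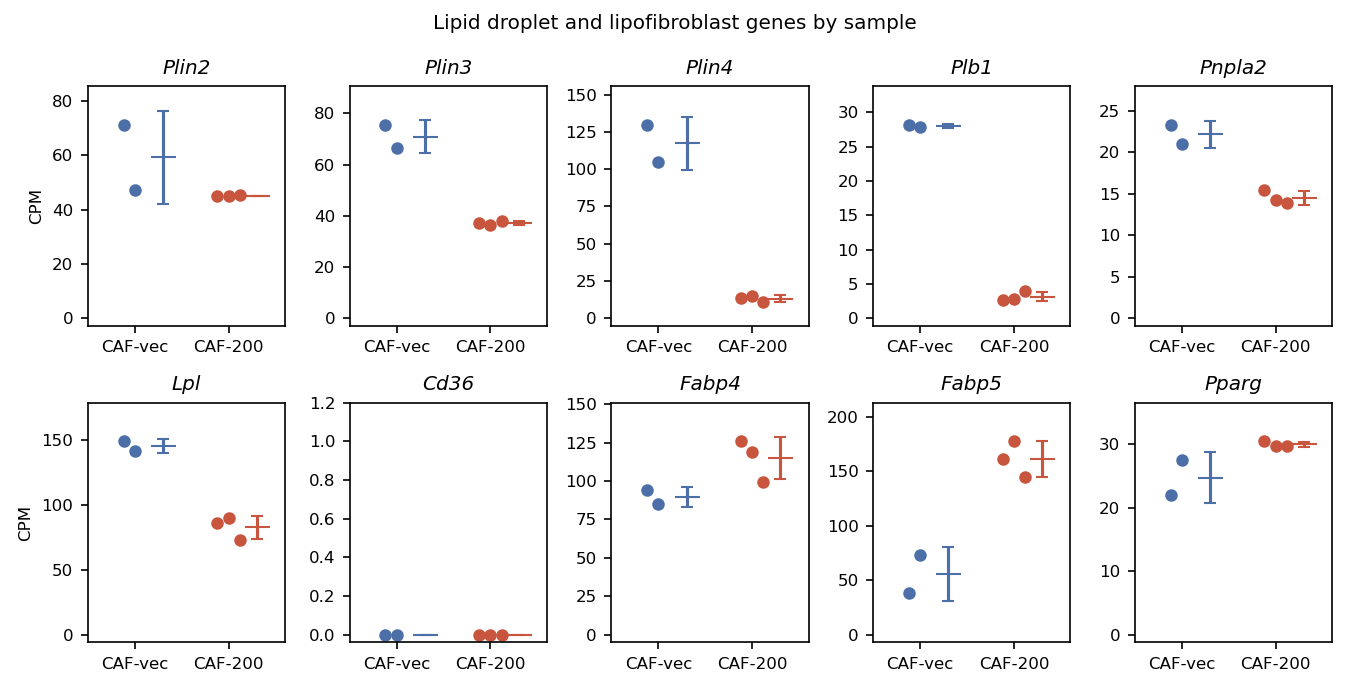
CPM of each of the 10 genes (y axis, linear from 0, scaled per gene) in the 2 CAF-vec samples (blue points) and the 3 CAF-200 samples (red points), with the mean and SD of each group beside the points. *Plin4* is at 104.7 CPM or more in both CAF-vec samples and at most 15.2 CPM in CAF-200, *Fabp5* is highest in the 3 CAF-200 samples, the CAF-vec samples of *Plin2* stand far apart, and *Cd36* is at 0 throughout.

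*Plin4* encodes perilipin 4, a coat protein with a long amphipathic repeat that covers nascent droplets and is best known from adipocytes. It lies on chromosome 17 of GRCm38 (ENSMUSG00000002831, chr17:56100591-56109803, minus strand). CAF-vec had 129.8 and 104.7 CPM, and CAF-200 had 13.5, 15.2 and 10.9 CPM. All CAF-200 samples were low, with the highest of them far under the lower CAF-vec sample. The means were 117.2 ± 17.8 CPM (SD, n = 2) and 13.2 ± 2.15 CPM (SD, n = 3), 8.90-fold lower in CAF-200, with a log2FC of -3.11 (standard error 0.169). It ranked 4 from the lowest among the 12175 genes tested. *Plin4* overlaps *Hdgfl2* on the other strand. The libraries were stranded, but whether counting used the strand is not stated, so reads of the 2 genes may not be fully separated. *Hdgfl2*, named after its value was seen, had a log2FC of -0.32 (limma, adjusted *p* = 0.169).

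*Plin3* encodes perilipin 3, a broadly expressed protein that moves from the cytosol onto new droplets. Its locus (ENSMUSG00000024197, chr17:56277476-56292873, minus strand) lies 167.7 kb from that of *Plin4*. The CAF-vec samples had 75.5 and 66.3 CPM, and the CAF-200 samples 37.2, 36.4 and 37.8 CPM. The CAF-200 samples were close together and under both CAF-vec samples. Means were 70.9 ± 6.56 CPM (SD, n = 2) and 37.2 ± 0.676 CPM (SD, n = 3), a log2FC of -0.92 (standard error 0.0928).

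*Plin2* encodes perilipin 2, the coat protein used as the droplet marker of lipofibroblasts. The gene (ENSMUSG00000028494, chr4:86648386-86670060, minus strand) was at 71.2 and 47.1 CPM in CAF-vec and at 45.0, 44.9 and 45.2 CPM in CAF-200. CAF-vec 1 was high, and CAF-vec 2 was just above the CAF-200 samples. The means were 59.2 ± 17.0 CPM (SD, n = 2) and 45.0 ± 0.122 CPM (SD, n = 3). The log2FC of -0.36 (standard error 0.176) was smaller than the difference of 0.59 between the log2 values of the CAF-vec samples. Without CAF-vec 1 it was -0.065 and without CAF-vec 2 it was -0.66, so its size rested on 1 control sample. The difference in *Plin2* was therefore not larger than the spread between replicates. *Plin1* was listed at 0 in all samples and *Plin5* reached at most 0.0793 CPM, so the adipocyte and oxidative-tissue perilipins were not detectable at a level that could be compared.

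*Plb1* encodes phospholipase B1, a membrane-bound lipase of phospholipids and other esters, best known from the intestinal brush border. It lies on chromosome 5 (ENSMUSG00000029134, chr5:32232708-32366520, plus strand) and overlaps the pseudogene *Gm15615* and the antisense gene *Gm36840*. It was 28.2 and 27.8 CPM in CAF-vec and 2.70, 2.82 and 3.90 CPM in CAF-200. The CAF-vec samples were nearly equal, and each CAF-200 sample was well under them. The means of 28.0 ± 0.247 CPM (SD, n = 2) and 3.14 ± 0.660 CPM (SD, n = 3) gave an 8.92-fold lower level in CAF-200. The log2FC was -2.98 (standard error 0.163), which ranked 6 from the lowest, near *Plin4* in size although the genes lie on different chromosomes.

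*Lpl* encodes lipoprotein lipase, which is secreted and releases fatty acids from circulating lipoproteins for uptake. The gene (ENSMUSG00000015568, chr8:68880491-68907448, plus strand) had 149.2 and 141.9 CPM in CAF-vec and 85.9, 89.8 and 72.9 CPM in CAF-200. Every CAF-200 sample was lower than both CAF-vec samples. The means were 145.6 ± 5.17 CPM (SD, n = 2) and 82.9 ± 8.84 CPM (SD, n = 3), with a log2FC of -0.81 (standard error 0.116).

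*Pnpla2* encodes adipose triglyceride lipase (ATGL), which takes the first fatty acid from stored triglyceride. At its locus (ENSMUSG00000025509, chr7:141455198-141460743, plus strand), 23.4 and 20.99 CPM were measured in CAF-vec and 15.4, 14.3 and 13.9 CPM in CAF-200. The groups did not overlap. The means were 22.2 ± 1.67 CPM (SD, n = 2) and 14.5 ± 0.817 CPM (SD, n = 3), 1.53-fold lower in CAF-200, and the log2FC was -0.59 (standard error 0.101). The gene for the ATGL inhibitor, *G0s2*, moved the other way, as described with the other lipolysis genes.

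*Fabp5* encodes a fatty acid binding protein of epidermis, macrophages and many cultured cells, which carries fatty acids through the cytosol. It lies at chr3:10012548-10016607 (ENSMUSG00000027533, plus strand). It was 38.5 and 73.3 CPM in CAF-vec and 161.1, 177.8 and 144.8 CPM in CAF-200. All CAF-200 samples were high, and CAF-vec 1 was lower than CAF-vec 2 by 0.92 on the log2 scale. Means were 55.9 ± 24.6 CPM (SD, n = 2) and 161.2 ± 16.5 CPM (SD, n = 3), a ratio of 2.89. The log2FC was 1.59 (standard error 0.272), with 1.13 without CAF-vec 1 and 2.05 without CAF-vec 2, so its direction held and its size depended on the control sample. *Fabp5* had the highest fold-change of the 9 genes and ranked 118 from the highest among all genes tested.

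*Fabp4* encodes the adipocyte fatty acid binding protein. Its locus (ENSMUSG00000062515, chr3:10204088-10208576, minus strand) lies 187.5 kb from that of *Fabp5*. It had 94.4 and 85.1 CPM in CAF-vec and 126.0, 119.2 and 99.7 CPM in CAF-200. CAF-200 3 was only slightly above CAF-vec 1, and the other CAF-200 samples were clearly higher. The means were 89.7 ± 6.57 CPM (SD, n = 2) and 114.9 ± 13.7 CPM (SD, n = 3), a ratio of 1.28, with a log2FC of 0.35 (standard error 0.129). Of the other members of the family, *Fabp9* reached at most 0.0913 CPM, *Fabp3* 0.31 CPM and *Fabp7* 0.251 CPM, and *Fabp12* was listed at 0. *Cd36*, the gene of the fatty acid translocase (ENSMUSG00000002944, chr5:17781690-17888801, minus strand), was listed at 0 in all 5 samples, and no fold-change can be given for it.

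*Pparg*, the regulator (ENSMUSG00000000440, chr6:115360951-115490399, plus strand) was 21.9 and 27.5 CPM in CAF-vec and 30.5, 29.7 and 29.7 CPM in CAF-200. It overlaps the antisense gene *Gm44079*, for which the same limit on strand holds as for *Plin4*. The CAF-200 samples were nearly equal and just above CAF-vec 2, with means of 24.7 ± 3.95 CPM (SD, n = 2) and 30.0 ± 0.433 CPM (SD, n = 3). The log2FC of 0.28 (standard error 0.117) was smaller than the difference of 0.32 between the CAF-vec samples on the log2 scale, and it was 0.12 without CAF-vec 1 and 0.44 without CAF-vec 2. As for *Plin2*, the difference was not larger than the spread between replicates. These markers of lipofibroblasts were the 2 genes of the 9 whose difference between groups was smaller than that between the CAF-vec samples. The plot of fold-changes sets the 9 genes side by side.

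**Figure D2:**
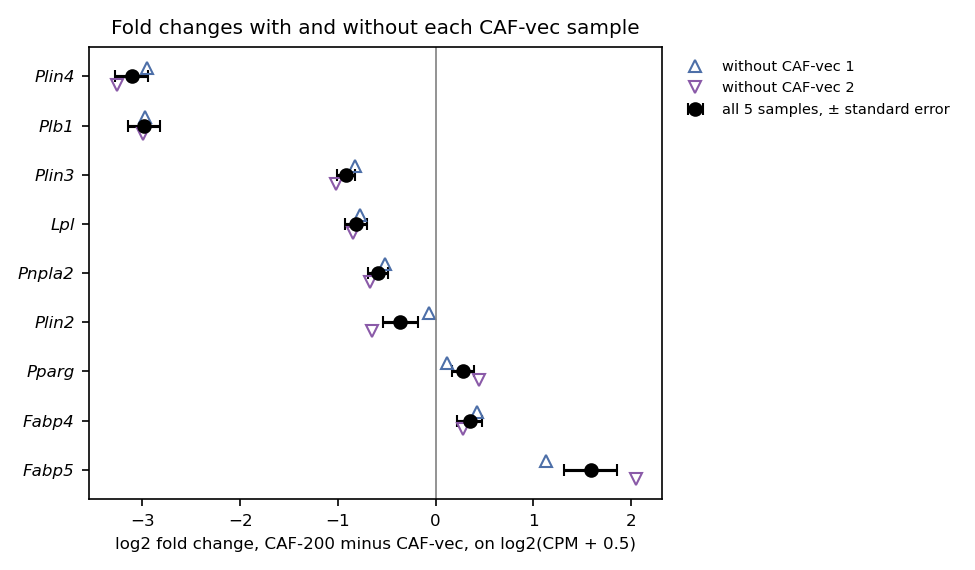
Log2FC of CAF-200 against CAF-vec on log2(CPM + 0.5) (x axis) for the 9 genes with a value (y axis), as black points with the standard error over all 5 samples, and open triangles without CAF-vec 1 or without CAF-vec 2. *Plin4* at -3.11 and *Plb1* at -2.98 stand far to the left with or without either sample, whereas *Plin2* moves from -0.66 to -0.065 and *Fabp5* from 2.05 to 1.13 with the CAF-vec sample left out.

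With the study's thresholds (log2FC beyond 1 and, in limma, an adjusted *p* under 0.01 by the Benjamini-Hochberg method over all 12175 genes), 2 of the 9 genes (*Plin4* and *Plb1*) were lower and none higher, where 2.35% of all genes tested were lower and 2.37% higher. At that adjusted *p* with any fold, 4 (*Plin3*, *Plin4*, *Plb1* and *Lpl*) were lower and none higher, where the background was 5.57% and 4.45%. At an unadjusted *p* under 0.05 there were 5 lower and 2 higher, where 27.6% of all genes tested were lower and 17.3% higher. Since the genes were chosen with this comparison known, nothing is read from these counts. The 4 lower at any fold became 3 with no filter on low values, without *Lpl*. Without any 1 of the CAF-200 samples none of the 9 genes was past both thresholds, as over the whole table, where 0 genes were lower and at most 1 higher, and 5 of the 9 were lower at an unadjusted *p* under 0.05.

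Levels of different genes were compared as CPM per kb of the longest principal transcript. In CAF-vec, *Fabp4* was the highest with 100 ± 7.34 CPM per kb (SD, n = 2), then *Fabp5* with 56.6 ± 25.0, *Lpl* with 35.4 ± 1.26, *Plin2* with 31.3 ± 9.02, *Plin4* with 20.4 ± 3.09 and *Plin3* with 19.5 ± 1.80 CPM per kb. *Pparg* (14.0 ± 2.23), *Pnpla2* (12.3 ± 0.926) and *Plb1* (5.87 ± 0.0518 CPM per kb) were lower. In this order *Fabp5* and *Lpl*, *Lpl* and *Plin2*, *Plin2* and *Plin4*, *Plin4* and *Plin3*, and *Pparg* and *Pnpla2* had overlapping intervals of mean ± SD. In CAF-200, *Fabp5* had the highest level, with 163 ± 16.7 CPM per kb (SD, n = 3), above *Fabp4* with 128 ± 15.3 CPM per kb. *Plin2* (23.9 ± 0.0644), *Lpl* (20.1 ± 2.15), *Pparg* (17.0 ± 0.245), *Plin3* (10.2 ± 0.186) and *Pnpla2* (8.07 ± 0.454 CPM per kb) followed. *Plin4* had 2.29 ± 0.373 and *Plb1* 0.658 ± 0.138 CPM per kb, and no neighbours in this order had overlapping intervals. *Plin4* was thus level with *Plin3* in CAF-vec and the lowest of the 3 perilipins compared here in CAF-200, while *Plin2* was the highest of them by its mean in both groups.

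**Figure D3:**
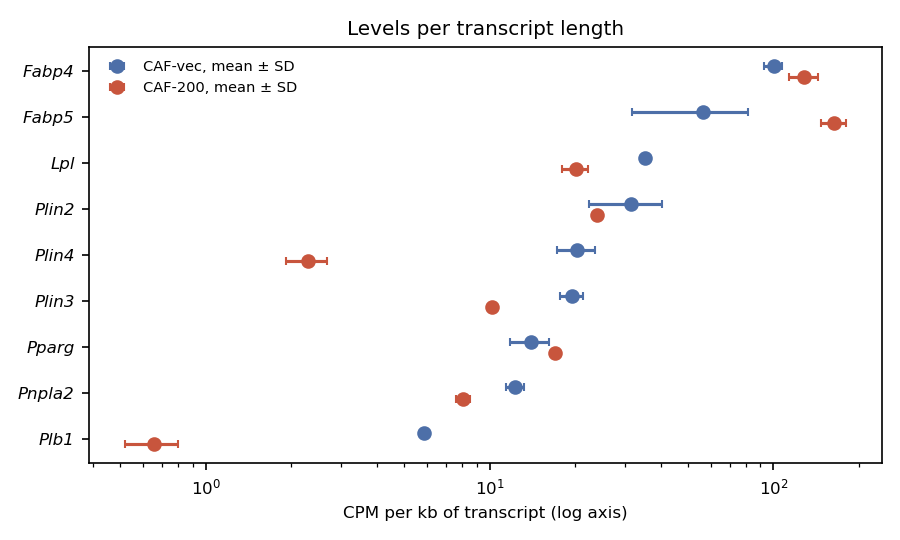
CPM per kb of transcript (x axis, log scale) of the 9 genes with a value (y axis, in the order of CAF-vec), as mean ± SD of 2 CAF-vec samples (blue) and 3 CAF-200 samples (red). The binding proteins *Fabp4* and *Fabp5* lie highest in both groups, and *Plin4* moves from 20.4 CPM per kb, beside *Plin3*, to 2.29 CPM per kb.

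For comparison, 84 other genes of the same pathway were sorted into 6 lists by role. Of these, 83 had a row under their symbol and 56 were high enough to be tested. At both thresholds 1 (*Vldlr*) fell and none rose, with 18 lower and 6 higher at an unadjusted *p* under 0.05, where 27.6% and 17.3% of all genes tested were. Over all genes tested 2.35% were lower and 2.37% higher at both thresholds. At an adjusted *p* under 0.01 with any fold, 6 fell and 1 rose (limma), where 5.57% and 4.45% of all genes tested did. Their median log2FC was -0.18, against -0.094 over all genes tested. Without any 1 of the CAF-200 samples, none of the genes of these lists or of the lipofibroblast markers passed both thresholds, and *Vldlr*, for example, had an adjusted *p* of 0.0307 to 0.0415 (limma). With no filter on low values that of *Vldlr* was 0.0118 (limma).

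Of 5 tested genes of the droplet coat and its assembly, none passed an adjusted *p* of 0.01. All 5 had a log2FC below 0, as had 7097 of the 12175 genes tested, and the median of the 5 was -0.28. Among the 5, the lowest adjusted *p* was that of *Rab18*, a small GTPase of the droplet surface. It was 405.7 and 259.8 CPM in CAF-vec and 239.2, 223.9 and 217.7 CPM in CAF-200 (log2FC -0.52, limma, adjusted *p* = 0.0954). CAF-vec 1 stood high, as it did for *Plin2*, and the log2FC of *Rab18* was -0.20 without CAF-vec 1 and -0.84 without CAF-vec 2.

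Among 11 tested genes of lipolysis, 2 fell and 1 rose at an adjusted *p* under 0.01, with a median of -0.11. *G0s2*, the inhibitor of ATGL, was 2.99 and 2.82 CPM in CAF-vec and 6.23, 5.52 and 5.62 CPM in CAF-200. It rose in all CAF-200 samples, by 0.88 on the log2 scale (in limma, adjusted *p* = 0.00575, and 0.0119 with no filter on low values). *Abhd5*, the co-activator of ATGL, had a log2FC of -0.42 (limma, adjusted *p* = 0.135) and was chosen after its value was seen. The 2 genes that fell, also named after their values were seen, were *Plbd2*, a lysosomal relative of phospholipase B (log2FC -0.99, limma, adjusted *p* = 0.00698), and *Pnpla6*, a lysophospholipase related to *Pnpla2* (log2FC -0.57, limma, adjusted *p* = 0.00869). With no filter on low values their adjusted *p* values were 0.0118 and 0.0126 (limma).

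Of the tested genes that handle lipoproteins with *Lpl*, 1 fell past both thresholds. It was *Vldlr*. This receptor gene, whose product binds triglyceride-rich lipoproteins, was 20.5 and 14.9 CPM in CAF-vec and 7.63, 6.74 and 6.54 CPM in CAF-200. Each CAF-200 sample was under both CAF-vec samples, and the log2FC was -1.27 (standard error 0.161, limma, adjusted *p* = 0.0057). The gene of the *Lpl* inhibitor *Angptl4* had a log2FC of 0.54 (limma, adjusted *p* = 0.0673).

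None of the 10 tested genes of fatty acid uptake and activation passed an adjusted *p* of 0.01, and their median was 0.014. *Acsl4*, an acyl-CoA synthetase with a preference for arachidonate, came nearest, with 27.7 and 26.9 CPM in CAF-vec and 39.4, 37.4 and 39.9 CPM in CAF-200 (log2FC 0.50, limma, adjusted *p* = 0.0104). In triglyceride synthesis, 1 of 12 fell, and the median was -0.37. A log2FC below 0 was found for 10 of the 12, and for 7097 of the 12175 genes tested. The gene that fell was *Lpin1*, a phosphatidate phosphatase, with 14.1 and 12.2 CPM in CAF-vec and 7.21, 6.58 and 6.73 CPM in CAF-200 (log2FC -0.89, limma, adjusted *p* = 0.00556). With no filter on low values its adjusted *p* was 0.0114 (limma). The final enzymes of the path, *Dgat1* and *Dgat2*, had log2FC values of -0.56 and 0.20 and did not pass.

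Of 13 tested partners and relatives of PPARG, 1 fell. It was *Ppard*, the related receptor, with 32.8 and 30.5 CPM in CAF-vec and 21.8, 21.9 and 21.01 CPM in CAF-200 (log2FC -0.54, limma, adjusted *p* = 0.00938). Its adjusted *p* was above 0.01 with no filter, quantile normalization, centring on sample medians, no variance trend and the replicate block, from 0.0119 to 0.0798, and without any 1 of the CAF-200 samples, from 0.0567 to 0.0623 (limma).

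Other lung lipofibroblast and alveolar fibroblast markers went in both directions. Of 11 genes, 5 were high enough to be tested, 2 fell and 1 rose at an adjusted *p* under 0.01. *Inmt*, a methyltransferase, was 8.52 and 4.70 CPM in CAF-vec and 1.59, 1.07 and 1.30 CPM in CAF-200. It fell by 1.92 on the log2 scale (in limma, adjusted *p* = 0.00714, and 0.0136 with no filter on low values). *Npnt*, the matrix protein nephronectin, was 12.9 and 15.6 CPM in CAF-vec and 81.5, 80.6 and 88.0 CPM in CAF-200. It rose by 2.51 on the log2 scale (in limma, adjusted *p* = 9.3e-04). *Fgf10*, the growth factor of the lipofibroblast niche, was chosen after its value was seen. It was 21.6 and 23.1 CPM in CAF-vec and 11.2, 11.6 and 11.9 CPM in CAF-200, and fell by 0.92 on the log2 scale (in limma, adjusted *p* = 0.00331). *Tcf21*, a defining transcription factor gene of lipofibroblasts, was listed at 0 in all samples, and *Wnt2*, a ligand of the same cells, reached at most 0.252 CPM. *Pdgfra* was 116.5 and 91.5 CPM in CAF-vec and 91.2, 95.3 and 83.7 CPM in CAF-200, so the groups overlapped. Of the genes that mark lipofibroblasts, *Plin2*, *Pparg* and *Pdgfra* were thus present in both groups, and *Tcf21* and *Cd36* were listed at 0 in both. *Limch1*, *Pth1r*, *Wnt2*, *Gpc3* and *Lepr* were too low to be tested. The highest value among them was 0.62 CPM, for *Limch1* in CAF-vec 1.

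Myofibroblast markers differed between the same samples. Of 10 myofibroblast and smooth muscle markers, 7 were tested and 6 rose past both thresholds (*Acta2*, *Tagln*, *Cnn1*, *Actg2*, *Myl9* and *Tgfbi*), with log2FC values from 2.05 to 2.94. *Acta2*, smooth muscle actin, was 92.8 and 125.7 CPM in CAF-vec and 660.7, 653.5 and 706.5 CPM in CAF-200 (log2FC 2.63, limma, adjusted *p* = 0.00123). Without any 1 of the CAF-200 samples its adjusted *p* was 0.0164 to 0.0195 (limma), and that of *Lyz2*, given below, was 0.0284 to 0.0308 (limma). The study reported weaker staining of smooth muscle actin protein in CAF-200, and by RT-qPCR less mRNA of most CAF markers. The *Acta2* RNA values here went the other way, and the reason was not tested. Together the 10 markers summed to 160.2 and 171.8 CPM in CAF-vec, with 1052 to 1170 CPM in CAF-200. Of the 9 fibroblast markers, *Dcn*, *Lum* and *Thy1* rose past both thresholds and none fell past them, while 4 had a log2FC below 0, the lowest being that of *Col1a1* at -0.91 (limma, adjusted *p* = 0.0982). The part of these changes in the levels of the droplet genes was not tested. The plot of the gene lists shows them together.

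**Figure D4:**
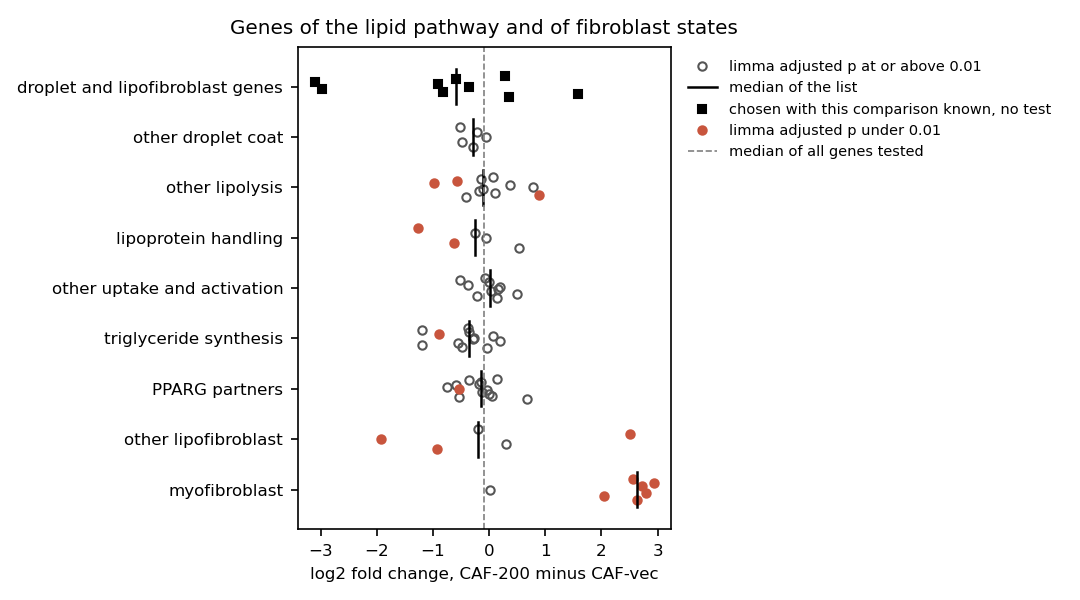
Log2FC of CAF-200 against CAF-vec (x axis) of each tested gene in the lists (y axis), with black squares for the 9 droplet and lipofibroblast genes, filled red points for other genes at an adjusted *p* under 0.01 (limma), open points for the rest, a black bar at each list's median and a dashed line at the median of all genes tested. *Plin4* and *Plb1* lie to the left of every other gene drawn, the other lipid lists centre between -0.37 and 0.014, and 6 of the 7 myofibroblast genes lie beyond 2.

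Markers of other cell types that carry droplets or these genes were low. The 7 adipocyte markers summed to 1.25 to 1.82 CPM per sample, with *Lep*, *Plin1* and *Cfd* at 0 in all samples, *Adipoq* at 0.0712 CPM or less, and *Lipe*, the only one tested, at 1.61 and 1.76 CPM in CAF-vec and 1.77, 1.23 and 1.62 CPM in CAF-200. The 8 macrophage and leukocyte markers had a sum of 8.59 and 9.40 CPM in CAF-vec, and of 12.2 to 12.9 CPM in CAF-200. *Adgre1* was at 0 in all samples and *Ptprc* at 0.0404 CPM or less, while *Lyz2* rose, from 1.11 and 1.99 CPM in CAF-vec to 7.48, 7.16 and 6.48 CPM in CAF-200 (limma, adjusted *p* = 0.00395). The other macrophage markers tested, *Csf1r* and *Cd68*, overlapped between the groups, with log2FC values of -0.46 and -0.14. *Fabp5*, also a macrophage gene, was at 144.8 CPM or more in the same samples, and the part of such cells in its level was not tested. Markers of endothelial cells, which express *Fabp4* and *Cd36* in the lung, summed to at most 1.06 CPM, with *Tie1*, *Emcn* and *Cldn5* at 0 in all samples, and the epithelial markers to at most 0.909 CPM.

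The genes whose pattern over the 5 samples was most like that of *Plin4*, by the root mean square distance of mean-centred log2 values, were *Asic1* (distance 0.135), *Ptn* (0.155) and *Map3k7cl* (0.188), with log2FC values of -3.08, -2.87 and -2.79. *Ptn*, the gene of the growth factor pleiotrophin, was 1601 and 1246 CPM in CAF-vec and 203.4, 198.3 and 178.4 CPM in CAF-200. The genes most like *Fabp5* were *Clec2d* (distance 0.119), *Mlf1* (0.124) and *Adgrd1* (0.128), with log2FC values of 1.51, 1.46 and 1.37. Each of them was, as *Fabp5* was, lower in CAF-vec 1 than in CAF-vec 2. The genes were picked by these same values, so the shared pattern follows from the choice.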

How the data were processed

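Values of 2 CAF-vec and 3 CAF-200 samples, sequenced by the authors as stranded, paired-end mRNA libraries, were analysed. For them 1 table of CPM values, in a file named for TMM normalization, was deposited by the authors. The submitters' processing notes name FastQC, cutadapt, Trimmomatic, STAR, RSEM and edgeR and the builds GRCm38 and mm10, with no versions. Depth is unknown, since whole reads could not be recovered. With steps of 0.0091 to 0.0105 CPM, 4.49% to 9.53% of values from 0.1 to 1 CPM lay within 0.05 of a whole read, against 30.3% to 73.9% of the lowest values. Therefore no count test was run, although counts had been foreseen for one alternative.

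The 12175 genes that reached 0.5 CPM in 2 or more samples entered limma 3.58.1 (R 4.3.3) as log2(CPM + 0.5), with lmFit, eBayes (variance trend) and Benjamini-Hochberg adjustment, and the script was checked on simulated data. A call required log2FC beyond 1 and an adjusted *p* under 0.01. The members and lists were chosen with earlier results of these data known. Genes named are the 10 members, each list's genes past both thresholds or, with none, its gene of lowest adjusted *p*, the defining markers of other cell types, and the 3 genes most like *Plin4* and *Fabp5*. All other genes named were chosen after their values were seen, whether or not marked so, among them relatives of the members, fibroblast markers, *Tcf21*, *Wnt2*, *Pdgfra*, *Angptl4*, *Dgat1*, *Dgat2* and *Zeb1*. Symbols and coordinates came by Ensembl identifier from the GENCODE annotation of GRCm38 (21795 of 21835 genes named), and 1 pathway gene, *Ldaf1*, had no row under its symbol. Protein sequences were not used here. The result of 1 pathway gene is not reported here. Tables and figures used Python 3.11.15, pandas 2.3.3, numpy 2.4.6 and matplotlib 3.10.9.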

Additional observations from a re-analysis of the deposited data

How the results depend on the processing

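All 9 genes kept the direction of their log2FC under each of the 13 alternatives tried for them, and 106 of those 117 values moved by less than 1 residual SD. The 11 others concerned *Plin2*, *Plin3*, *Pnpla2*, *Fabp5* and *Pparg*. Since all CAF-200 values of each of the 9 lay on 1 side of both CAF-vec values, most alternatives could not reverse a direction. Only quantile normalization and centring on sample medians could have done so. The number of droplet and lipofibroblast genes lower past both thresholds was 2, became 4 with a log2FC beyond 0.5, and ranged from 0 to 3 with 1 sample left out. The number higher was 0, became 1 (*Fabp5*) at an adjusted *p* under 0.05, and ranged from 0 to 1 with 1 sample left out. Of the pathway genes, 1 was lower, which became 0 with no filter on low values (20 at an unadjusted *p* under 0.05, limma), 2 at an adjusted *p* under 0.05, 6 with a log2FC beyond 0.5, and 0 to 4 with 1 sample left out (13 to 24 at an unadjusted *p* under 0.05, limma). None was higher, except 1 (*G0s2*) with a log2FC beyond 0.5. Of the lipofibroblast markers, 1 was lower, with 0 under no filter (2 at an unadjusted *p* under 0.05, limma), 2 with a log2FC beyond 0.5 and 0 to 1 with 1 sample left out, and 1 was higher, with 0 to 1 when a sample was left out. Leaving out any 1 CAF-200 sample ended every call among these genes, and over all genes left 0 lower and at most 1 higher, while 3816 to 4058 had an unadjusted *p* under 0.05 (limma). Without CAF-vec 1 there were 298 lower and 347 higher genes, and without CAF-vec 2 there were 906 and 624. The cause was not tested. A CAF-vec sample left alone was assumed to vary like the CAF-200 samples.

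CAF-vec and CAF-200 share the replicate numbers 1 and 2, and nothing in the labels says that a number marks a shared culture or day. Deviations of same-numbered samples correlated over genes at 0.249 and 0.134. With the replicate block, 0 pathway genes were lower (13 at an unadjusted *p* under 0.05, limma), the droplet and lipofibroblast genes lower at any fold became 2 in place of 4 (without *Plin3* and *Lpl*), *Vldlr*, *G0s2*, *Lpin1* and *Fgf10* had adjusted *p* values of 0.0157, 0.0328, 0.0296 and 0.0235 (limma), and 70 genes were lower and 101 higher over the table, where 286 and 289 were without it. Centring on sample medians shifted the median log2FC over all genes, -0.094, to 0.0027 and gave 228 lower and 365 higher genes. *Acsl4* then had an adjusted *p* of 0.00616, and of 0.00562 after quantile normalization (limma), whereas *Ppard* no longer passed an adjusted *p* of 0.01, with 0.0134 and 0.0131, nor with no variance trend (0.0119), with no filter (0.0133) or with the block (0.0798), at a log2FC of -0.44 to -0.54. Without a filter, *Vldlr*, *G0s2*, *Lpin1* and *Inmt* had adjusted *p* values of 0.0118, 0.0119, 0.0114 and 0.0136 (limma). The tests on whole counts planned as an alternative were not run, because whole reads were not recovered. An unknown depth, 2 control samples and the unstated use of strand limit all values.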
